A study of Homo sapiens with 12 samples.

Results

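LNCaP cells transfected with SRRM4 were compared with LNCaP cells transfected with LSD1 lacking microexon 8a. The 3 SRRM4 libraries and the 3 LSD1 libraries, 6 of the 12 in the series, were chosen by their labels, and all 13001 genes of the deposited count table were compared. LNCaP clone FGC is an androgen-sensitive human prostate cancer line that expresses the androgen receptor, and a single line stands for every group. Cells at passage 8 were grown in RPMI 1640 with fetal bovine serum and transfected transiently with Lipofectamine 2000, and the medium was replaced after 6 hours. The 4 groups received an empty vector (EV), LSD1, LSD1+8a or SRRM4, and polyA RNA was sequenced. The time from transfection to harvest and the share of cells that took up plasmid are not given in the sources used here. By its title, the series asks about SRRM4 as a mediator of LSD1+8a splicing in neuroendocrine prostate cancer. Neither group of this pair carried the empty vector, so a difference between them can come from either plasmid. The EV and LSD1+8a levels are therefore given beside the main genes as a description. Whether the 3 libraries of each group were grown separately is not stated in the labels. All p-values thus rest on the spread among these libraries alone, and that spread may be technical.

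SRRM4 is a splicing activator of neurons that promotes the inclusion of microexons, very short exons that alter protein surfaces. Among its known substrates are the microexon 8a of KDM1A, the gene of LSD1, and an exon of REST whose inclusion yields a truncated repressor. REST silences neuronal genes outside the nervous system by recruiting CoREST and LSD1, a demethylase of histone H3. LSD1 without the microexon works in this complex, while the form with 8a is found mainly in neurons.

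Total counts were 10.88 to 11.49 M in the SRRM4 libraries and 11.66 to 12.57 M in the LSD1 libraries, so each SRRM4 library was shallower than each LSD1 library. Mitochondrially encoded transcripts made up 6.63 to 6.89% and 6.38 to 6.67% of counts. All 10 luminal prostate markers checked were measured in both groups. KLK3, the gene of prostate-specific antigen, stood at 2680 to 2750 TPM (a transcript level scaled to gene length and library size) with SRRM4 and 3270 to 3430 TPM with LSD1. Thinning all libraries to the smallest total left 547 genes higher and 334 lower, near the counts given below.

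KDM1A checked the labels of the LSD1 libraries. The LSD1 group received this gene by design. Its level was 515, 587 and 519 CPM (counts scaled to library size and composition) in the LSD1 libraries. In the SRRM4 libraries it was 96.9, 92 and 100 CPM, against 94, 95.2 and 93.7 CPM with EV. The groups were far apart (log2 fold change of SRRM4 against LSD1 -2.49, SE 0.12, edgeR adjusted p = 3.25e-06). With LSD1+8a the gene reached 2610, 1980 and 2210 CPM. A count per gene tells neither plasmid from endogenous reads nor the 2 LSD1 isoforms from each other. The SRRM4 transcript itself was not analysed here, and the SRRM4 labels therefore have no such check.

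Relative to LSD1 cells, SRRM4 cells held more transcript of many measured REST target, interferon-stimulated and p53 target genes. They held slightly less of some androgen receptor targets. Of 13001 genes, 7.05% passed edgeR's quasi-likelihood test with a Benjamini-Hochberg adjusted p under 0.05, and such genes are termed called. These were 569 genes higher with SRRM4 (4.38%) and 347 lower (2.67%). The large changes were nearly all rises: 41 of the 569 higher genes and 2 of the 347 lower genes (KDM1A and a gene with a clone name) passed 2-fold, and 5 and 1 passed 4-fold. The median called change was 0.25 among the higher and -0.2 among the lower genes on the log2 scale, and the median over all genes was -0.0039. The 3 libraries of each group lay fully apart for 564 of the 569 and 340 of the 347 called genes, and for 25.6% of all genes tested. Protein-coding genes made up 94.2% of the higher, 88.8% of the lower and 84.6% of all genes. Against a required change of 1.5-fold, 34 genes were higher and 1 lower. DESeq2 called 325 higher and 174 lower, and tests on log2(TPM + 1) called 128 and 57. Without SRRM4 replicate 2, 329 were higher and 159 lower, and without LSD1 replicate 2, 374 and 182. The lower calls numbered 230 without SRRM4 replicate 3 and 222 without LSD1 replicate 3.

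**Figure D1:**
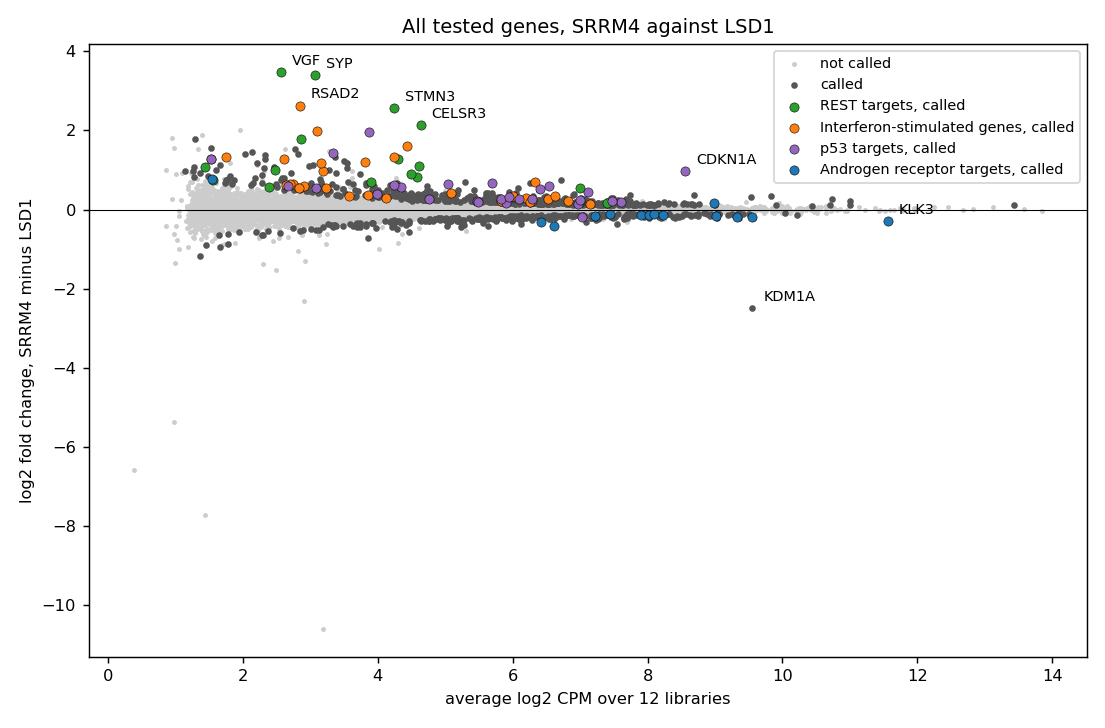
Log2 fold change of SRRM4 against LSD1 (y axis) over the average log2 CPM of 12 libraries (x axis) for all 13001 tested genes, with called members of 4 gene lists in colour. The 2 highest called genes, VGF and SYP, are REST targets at 3.48 and 3.39, and the lowest called gene is KDM1A at -2.49.

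The largest rises, VGF and SYP, were in genes that REST normally silences outside neurons. Of 67 listed REST targets 23 were measured. With SRRM4, 18 of the 23 were higher and 0 lower, which left 5 without a call, and the list median was 0.75. At an unadjusted p under 0.05 edgeR also gave 0 lower members, as did DESeq2 and limma-voom. How the 13001 genes of the table were chosen is not given in the sources used here, and a gene that entered it only through its SRRM4 libraries had to differ. The 44 unmeasured targets include CHGA and SYN1, so the count describes the measured targets and not the list. With a required change of 1.5-fold 7 members were higher. The promoters of VGF and CELSR3, which hold letters of an RE1, the site REST binds, are printed here as RefSeq gives them for GRCh38.p14 (VGF at chr7:101165570-101165819 and CELSR3 at chr3:48662887-48663136, both on the minus strand). Each is the 250 bases before the start site, 5′ to 3′, and capitals mark the letters found.
VGF: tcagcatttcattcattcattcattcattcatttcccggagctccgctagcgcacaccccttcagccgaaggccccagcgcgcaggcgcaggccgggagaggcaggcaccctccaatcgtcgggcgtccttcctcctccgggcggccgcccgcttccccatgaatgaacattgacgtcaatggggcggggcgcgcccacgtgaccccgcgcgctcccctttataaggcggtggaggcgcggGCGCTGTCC
CELSR3: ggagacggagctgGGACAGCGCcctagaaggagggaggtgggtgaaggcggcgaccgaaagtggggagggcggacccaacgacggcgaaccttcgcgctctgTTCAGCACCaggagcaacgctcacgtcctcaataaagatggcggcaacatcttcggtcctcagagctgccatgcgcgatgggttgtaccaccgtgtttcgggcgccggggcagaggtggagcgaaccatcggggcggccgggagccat
The letters searched were TTCAGCACC of the left arm of the RE1 and GGACAGCGC of its right arm, on both strands of windows from 250 bases before to 50 after a start site, and both were chosen after the values were seen. In VGF the right arm lies on the opposite strand, 9 bases before the start. Just after the start, past the printed bases, that strand holds the left arm with 1 letter changed. Only exact letters were counted, so this near match is not in the counts below. CELSR3 holds letters of both arms, the right arm 237 and the left arm 148 bases before the start. The right arm thus comes first and the arms lie apart, so they do not read as a whole RE1. Of the 14 measured REST targets with a window, 1 (CELSR3) held the left arm and 3 (VGF, CELSR3 and BSN) the right arm. The left arm was in 0.376% and the right arm in 0.581% of all 35116 windows, and in 0.321% and 1.1% of the 9040 tested genes with a window. A match describes letters in the window and not REST binding.

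Genes of synaptic vesicles and secretion led the REST targets. SYP encodes synaptophysin, a synaptic vesicle protein used to diagnose neuroendocrine tumours. It stood at 2.71, 2.47 and 2.53 CPM with LSD1 and at 27.5, 25.8 and 28.1 CPM with SRRM4. All SRRM4 libraries were about 10.5-fold higher (log2 fold change 3.39, SE 0.14, edgeR adjusted p = 4.21e-20), and the EV and LSD1+8a means of 2.52 and 2.69 CPM lay beside LSD1. VGF, a precursor of neuropeptides, stood at 1.83, 1.28 and 2.03 CPM with LSD1 and at 18.9, 20.8 and 18.2 CPM with SRRM4. It had the largest rise of the comparison, 11.2-fold (log2 fold change 3.48, SE 0.16, edgeR adjusted p = 2.93e-18). CPLX1, a complexin that controls vesicle fusion, was 1.63-fold higher, and SYT4, a synaptotagmin of secretory vesicles, rose from 115, 122 and 111 to 173, 169 and 165 CPM (log2 fold change 0.55). BSN, a scaffold of the presynaptic active zone, was higher by 1.28 on the log2 scale (edgeR adjusted p = 4.52e-14).

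Cytoskeletal, adhesion and signalling genes of neurons rose as well. STMN3, a neuronal stathmin that regulates microtubules, stood at 8.61, 8.77 and 9.11 CPM with LSD1 and at 53.7, 51.9 and 52 CPM with SRRM4. The groups did not overlap, and STMN3 had the smallest p of the targets (log2 fold change 2.57, SE 0.08, edgeR adjusted p = 1.97e-23). CELSR3, an atypical cadherin of axon guidance, rose from 12.8, 14.6 and 14.1 to 60.5, 64.1 and 58 CPM, which is 4.4-fold. TUBB3, the neuronal beta-tubulin, was 1.85-fold higher, and KIF1A, a kinesin that carries synaptic vesicle precursors, 1.14-fold. MAPK8IP2, a scaffold of the JNK pathway, was higher by 1.1 and its relative MAPK8IP1 by 0.31 on the log2 scale. DISP2, a member of the dispatched family, stood at 3.99, 3.75 and 5.4 CPM with LSD1 and 15.5, 15 and 14.7 CPM with SRRM4, 3.44-fold higher. Among the ion channels HCN2, a pacemaker channel, was 1.99-fold higher and SCN8A, a neuronal sodium channel, 1.68-fold. The SCN8A groups lay close, at 2.39, 2.72 and 2.11 CPM with LSD1 and 4.86, 2.76 and 4.49 CPM with SRRM4. The SCN8A call was lost in 12 of 19 other settings, DESeq2 and limma-voom among them.

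Among the 5 targets not called were CACNA1H, KIF5C, NEFL and GRIN1, at 0.14, 0.12, -0.02 and -0.15 on the log2 scale. REST's own transcript stood at 46.9, 49.4 and 46.2 CPM with LSD1 and at 52.1, 49.2 and 49.9 CPM with SRRM4, and these ranges overlapped (log2 fold change 0.09, edgeR adjusted p = 0.412). Gene counts do not show which REST isoform was made. Summed over the 23 measured targets, SRRM4 libraries held 1040 to 1050 CPM. The other groups were close to each other, at 694 to 711 CPM with LSD1, 698 to 732 CPM with EV and 693 to 699 CPM with LSD1+8a. For all 18 called targets the SRRM4 mean exceeded the LSD1+8a mean, an order favoured by their choice for a high SRRM4 level. The LSD1+8a libraries held more KDM1A than those of any other group.

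**Figure D2:**
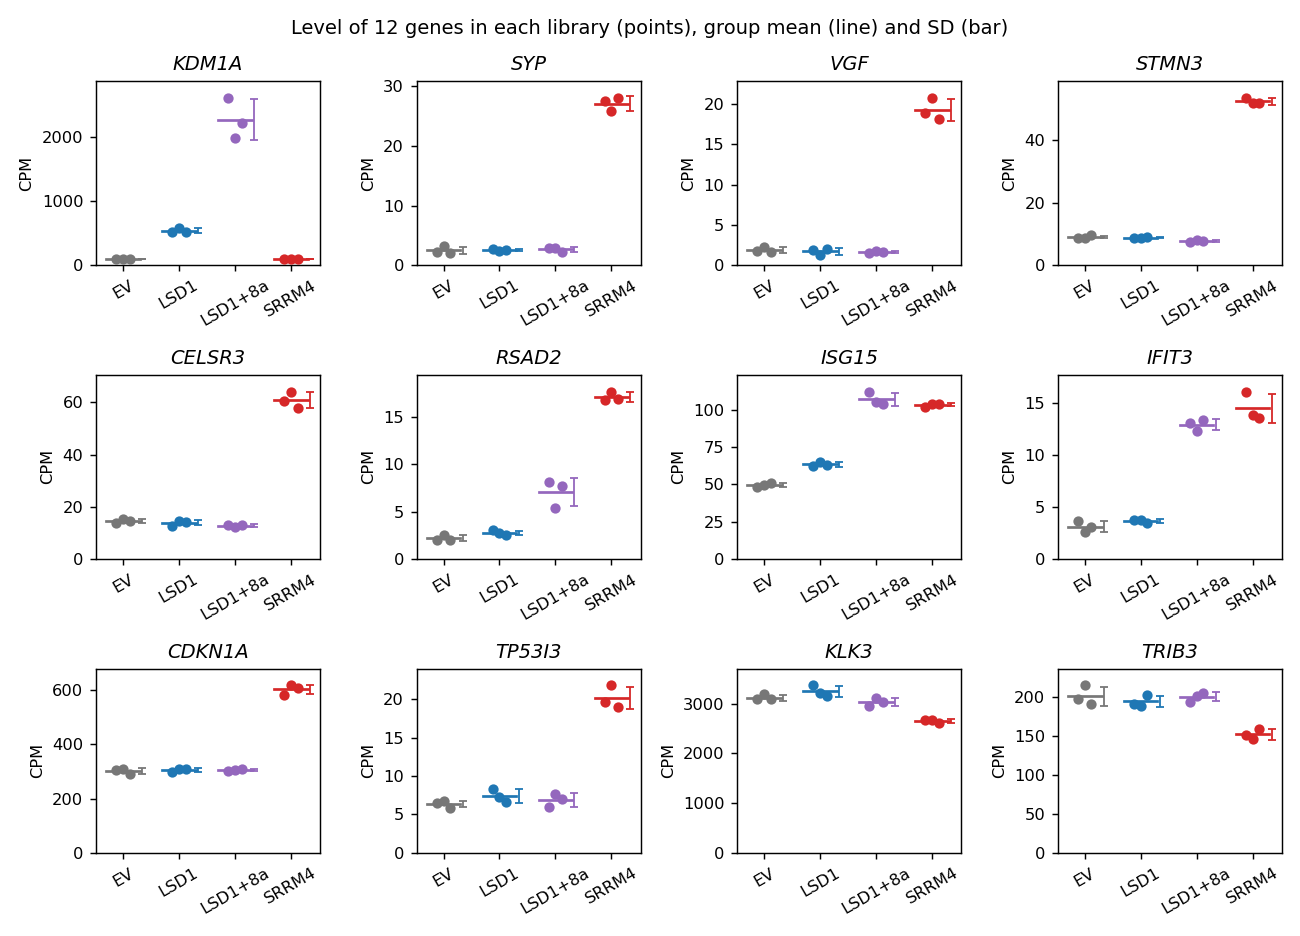
CPM (y axis, linear from 0) of 12 genes in each library of the 4 groups (x axis), with points for libraries, a line for the group mean and a bar for the SD of 3 libraries. SYP, VGF, STMN3 and CELSR3 are high in SRRM4 alone, and ISG15 and IFIT3 are high in both SRRM4 and LSD1+8a.

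Genes outside the REST list were also among the 15 largest rises. STX1A, the syntaxin of the neuronal fusion machinery, rose from 5.66, 4.34 and 4.3 to 12.3, 13 and 12.7 CPM (2.64-fold). PSD, an exchange factor for ARF proteins, rose from 4.86, 5.79 and 4.56 to 14.1, 14.8 and 14.8 CPM (2.87-fold). Letters of both RE1 arms lie in its window just after the start site, but on opposite strands, so they do not read as a whole RE1. PGBD5, a domesticated transposase expressed in brain, was 2.93-fold higher. NAPB, the neuronal beta-SNAP of membrane fusion, and AP3B2, the neuronal subunit of an adaptor complex, were picked out after their values were seen. They were 2.53-fold and 2.64-fold higher.

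Lineage regulators of neuroendocrine cells were seen in small part. Of 39 listed neuroendocrine markers 9 were measured, of which 4 were higher and none lower, with a median of 0.11. Lower members numbered 0 in DESeq2, in limma-voom and in edgeR at an unadjusted p under 0.05. VGF, SYP and SYT4 are shared with the REST list, and the fourth was ONECUT2, a transcription factor linked to neuroendocrine prostate cancer. It rose from 11.9, 15.3 and 12.2 to 19.2, 18.9 and 18.5 CPM (log2 fold change 0.53, SE 0.11, edgeR adjusted p = 0.00152). Of 45 measured genes of axon guidance and neuronal adhesion, 7 were higher (15.6%) and 2 lower (4.44%), against 4.38% and 2.67% of all genes. The median was 0.04. Besides CELSR3, the higher ones included MAP1B, a microtubule-associated protein of axons (0.28), and SEMA6A, a semaphorin (0.39).

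Few genes that host microexons were called. Of 68 measured hosts 3 were higher and 2 lower, near the shares over all genes, and the median was 0.02. NFASC, a neuronal cell adhesion protein, rose from 5.66, 4.94 and 7.6 to 13.1, 13.7 and 12.9 CPM (log2 fold change 1.12, SE 0.13, edgeR adjusted p = 1.31e-07). SYNJ1, the phosphatase synaptojanin, and SCRIB, a polarity protein, were higher by 0.45 and 0.22. The lower hosts were KDM1A and PPFIA2. PPFIA2, a liprin of the active zone, fell from 151, 147 and 152 to 129, 132 and 135 CPM (-0.18). Inclusion of a microexon cannot be read from these tables, which give 1 value per gene.

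Calls among splicing and LSD1 complex genes were also near the shares over all genes. Of 23 neural splicing regulators 1 was higher and 1 lower. PTBP3, a polypyrimidine tract binding protein, was higher by 0.2 (not called by DESeq2), and ESRP1, an epithelial splicing regulator, was lower by -0.18. Of 31 serine/arginine splicing factors, RBM39 alone was called, higher by 0.12. None was lower, 3 were at an unadjusted p under 0.05 in edgeR, and DESeq2 and limma-voom called 0. Of 28 measured genes of the LSD1 and CoREST complex and its partners, MTA2, a subunit of the NuRD deacetylase complex, was the sole higher gene, at 182, 178 and 182 CPM with LSD1 and 208, 221 and 210 CPM with SRRM4 (0.24), and KDM1A the sole lower one. Among 44 Polycomb and chromatin regulators the higher genes were KDM5C (0.12) and KMT2D (0.11), neither called by DESeq2, and 2 were lower, among them KDM3A (-0.28).

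Interferon-stimulated genes were the largest block of called genes in a list. Of 61 measured members 30 were higher and 0 lower, 31 had no call, and the median was 0.23. At an unadjusted p under 0.05 edgeR gave 0 lower members, and so did DESeq2 and limma-voom. The count was 13 on log2(TPM + 1) and 7 with a required change of 1.5-fold. Interferons act through STAT and IRF factors on a promoter motif called the interferon-stimulated response element. Promoters of 3 of these genes are printed because they hold its letters, a pair of GAAA runs with 2 bases of any kind between them. They are the 250 bases before the start site, from RefSeq on GRCh38.p14, plus strand, and capitals mark the letters, which read as TTTC runs where the match is on the opposite strand. RSAD2 lies at chr2:6877527-6877776, IFIT3 (the first of its listed windows) at chr10:89327747-89327996 and ISG15 at chr1:1013247-1013496.
RSAD2: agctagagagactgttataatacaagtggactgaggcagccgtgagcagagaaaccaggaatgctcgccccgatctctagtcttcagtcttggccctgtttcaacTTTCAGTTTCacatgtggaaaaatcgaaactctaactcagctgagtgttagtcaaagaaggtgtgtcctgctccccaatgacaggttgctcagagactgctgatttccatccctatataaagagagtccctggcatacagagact
IFIT3: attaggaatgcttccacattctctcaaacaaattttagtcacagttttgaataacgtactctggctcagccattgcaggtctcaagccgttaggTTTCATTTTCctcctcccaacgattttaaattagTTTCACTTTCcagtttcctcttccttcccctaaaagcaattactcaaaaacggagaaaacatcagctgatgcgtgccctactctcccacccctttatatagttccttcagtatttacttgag
ISG15: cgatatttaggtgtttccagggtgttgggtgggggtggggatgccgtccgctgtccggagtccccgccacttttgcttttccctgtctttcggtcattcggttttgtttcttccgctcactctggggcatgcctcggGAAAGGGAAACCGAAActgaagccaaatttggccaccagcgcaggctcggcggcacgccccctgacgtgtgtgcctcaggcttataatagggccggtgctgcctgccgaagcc
In ISG15 a pair of matches overlap in 1 run of capitals. The letters were in 3.57% of all windows. Of 46 measured members with a window, 30 (65.2%) held the letters, against 3.75% of the 9040 tested genes with a window. The share was 75% of 20 members called higher and 57.7% of 26 members not called.

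Antiviral effectors had the largest changes. RSAD2, the antiviral enzyme viperin, stood at 3.03, 2.72 and 2.53 CPM with LSD1 and at 16.8, 17.7 and 16.9 CPM with SRRM4. Its libraries were well apart (6.19-fold, log2 fold change 2.63, SE 0.15, edgeR adjusted p = 1.9e-15). IFIT3, which binds foreign RNA together with other IFIT proteins, rose from 3.75, 3.75 and 3.46 to 16.1, 13.8 and 13.6 CPM (3.97-fold). Its relatives IFIT2 and IFIT1 were 3.03-fold and 2.49-fold higher. The oligoadenylate synthetase family, which activates RNase L, rose too. OASL, a member without that activity, was 2.3-fold and OAS2 2.42-fold higher. ISG15, a ubiquitin-like modifier, stood at 62.2, 65.1 and 62.9 CPM with LSD1 and 102, 104 and 104 CPM with SRRM4 (1.63-fold, edgeR adjusted p = 3.09e-14). IFITM1 and IFITM3, similar genes whose reads may be shared, were higher by 1.17 and 0.33 on the log2 scale.

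Regulators of the response had smaller fold changes than these effectors, except that IRF1 exceeded IFITM3. IRF1, a transcription factor, rose from 4.78, 5.53 and 8.02 to 8.93, 9.47 and 9.16 CPM (1.51-fold), and was not called by DESeq2. STAT2, IRF7 and IRF9 were not called, at 0, 0.1 and 0.09 on the log2 scale, and neither was MX1, a dynamin-like antiviral protein, at 0.25.

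The levels of interferon-stimulated genes were also high with LSD1+8a. Of the 30 genes called higher, the LSD1+8a mean exceeded the LSD1 mean in 30 and the SRRM4 mean in 18, and the LSD1 mean exceeded the EV mean in 25. Their choice for an LSD1 level under that of SRRM4 favours the first of these counts. IFIT1, for example, averaged 7.3 CPM with EV and 30.5 CPM with LSD1+8a, beside 25.5, 30.1 and 25.8 CPM with SRRM4. RSAD2 differed from that order: its LSD1+8a mean of 7.06 CPM lay well under the SRRM4 libraries. Summed over the 61 members, SRRM4 libraries held 2590 to 2670 CPM and LSD1 libraries 2250 to 2310 CPM. The range was 2170 to 2220 CPM with EV and 2650 to 2760 CPM with LSD1+8a.

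**Figure D3:**
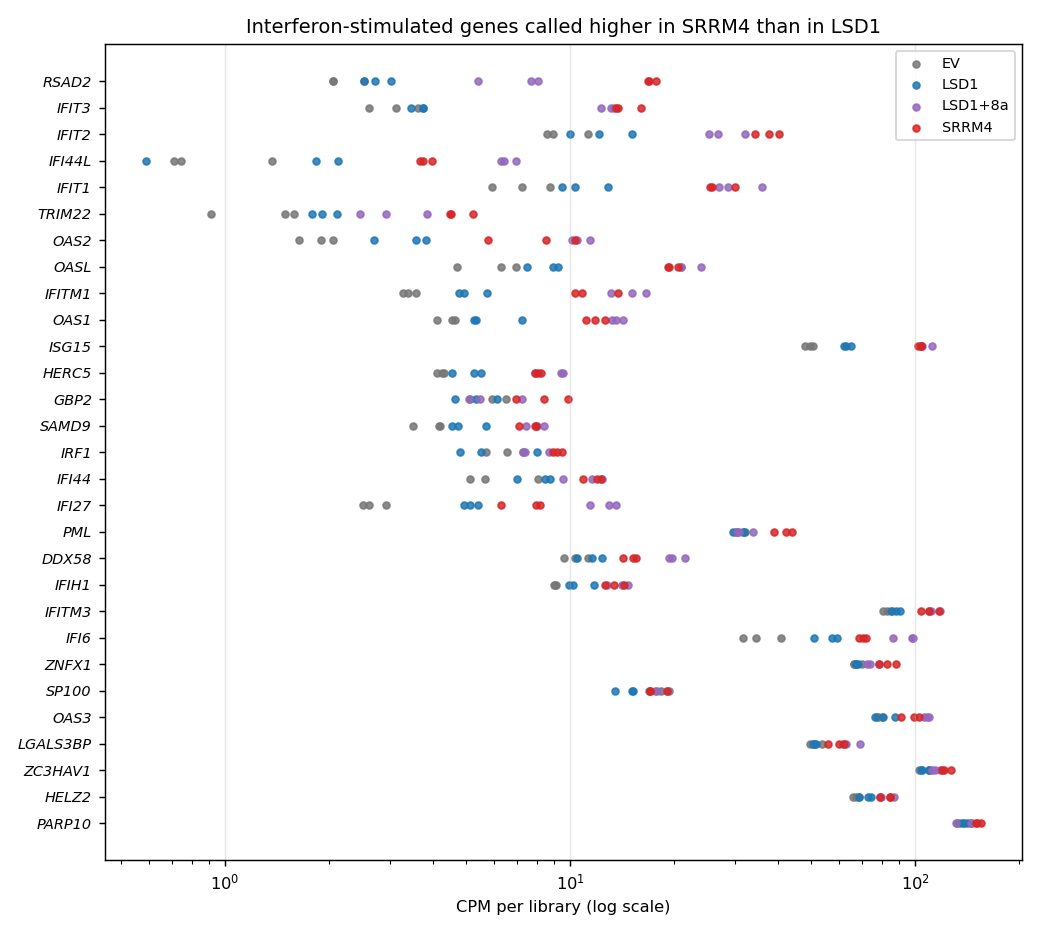
CPM in each library (x axis, log scale) of 29 of the 30 interferon-stimulated genes called higher in SRRM4 than in LSD1, 1 gene per row, with points coloured by group. SRRM4 points lie right of LSD1 points throughout, and for 17 of the 29 genes the LSD1+8a mean lies further right still.

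Antigen presentation genes followed the interferon list in direction. Of 19 measured, 8 were higher and none was lower (median 0.13). An unadjusted p under 0.05 in edgeR gave 1 lower member, and DESeq2 and limma-voom gave 0. TAP1, a peptide transporter, rose from 44.3, 46 and 42 to 55.2, 62.4 and 60.9 CPM (1.35-fold, edgeR adjusted p = 4.03e-06). NLRC5, the activator of MHC class I genes, was 1.63-fold and ERAP2, a peptide-trimming enzyme, 1.8-fold higher. The invariant light chain B2M was higher by 0.16, and HLA-C and HLA-E, whose reads may be shared with other HLA genes, by 0.13 and 0.22. DESeq2 called neither HLA gene, and 5 of the 19 genes in all. For all 8 higher genes the SRRM4 mean exceeded the LSD1+8a mean, an order favoured by their choice for a high SRRM4 level. Summed over the 19 measured genes these groups overlapped, at 3490 to 3600 CPM with SRRM4 and 3450 to 3640 CPM with LSD1+8a. Of 20 measured genes of the NF-kB pathway 6 were higher (30%) and 1 was lower (5%), against 4.38% and 2.67% of all genes. The median was 0.15. NFKB2, a subunit of the noncanonical pathway, rose from 61.9, 59.9 and 62.2 to 81, 82 and 81.9 CPM (1.33-fold), its partner RELB was 1.53-fold and BIRC3, an inhibitor of apoptosis, 1.9-fold higher. The lower gene was ZC3H12A, an RNase that limits inflammation, at -0.18. DESeq2 called 3 higher and 0 lower genes of this list, with neither RELB nor ZC3H12A among them.

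Targets of p53, the factor that halts the cell cycle after damage, were higher in 26 of 45 measured cases. A single one was lower (2.22%, near the 2.67% of all genes), 18 had no call, and the median was 0.21. CDKN1A, which encodes the cyclin-dependent kinase inhibitor p21, stood at 299, 308 and 311 CPM with LSD1 and 583, 618 and 608 CPM with SRRM4. It was 1.97-fold higher (SE 0.03 on the log2 scale, edgeR adjusted p = 1.09e-22), and EV and LSD1+8a averaged 302 and 305 CPM. SERPINB5, the serpin maspin, rose from 7.5, 9.62 and 9.37 to 34.1, 34.2 and 34.1 CPM (3.87-fold). TP53I3, an oxidoreductase, was 2.72-fold higher, at 8.29, 7.32 and 6.58 against 19.7, 21.8 and 19 CPM. Feedback inhibitors of p53 were among the members: MDM2, its ubiquitin ligase, rose from 124, 135 and 134 to 183, 169 and 184 CPM (1.36-fold), and PPM1D, a phosphatase, was higher by 0.63 on the log2 scale.

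Death and arrest genes on the p53 list were also called higher. FDXR, a mitochondrial reductase, was 1.6-fold and BTG2, an antiproliferative cofactor, 1.51-fold higher. FAS, a death receptor, GADD45A, a growth arrest protein, and BAX, an effector of apoptosis, were higher by 0.54, 0.57 and 0.21, and DESeq2 called neither FAS nor BAX. TRIM22, which is also on the interferon list, was higher by 1.29. SESN2, a sestrin also on the ATF4 list, was 1.44-fold higher, while its relative SESN1 fell from 134, 145 and 133 to 122, 116 and 122 CPM (-0.19). For all 26 higher targets the SRRM4 mean exceeded the means of EV and LSD1+8a, an order favoured by their choice for a high SRRM4 level. Summed over the 45 measured targets, SRRM4 libraries held 4420 to 4490 CPM and LSD1 libraries 3770 to 3850 CPM. The range was 3510 to 3820 CPM with EV and 3570 to 3640 CPM with LSD1+8a. The count was 12 on log2(TPM + 1) and 3 with a required change of 1.5-fold.

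**Figure D4:**
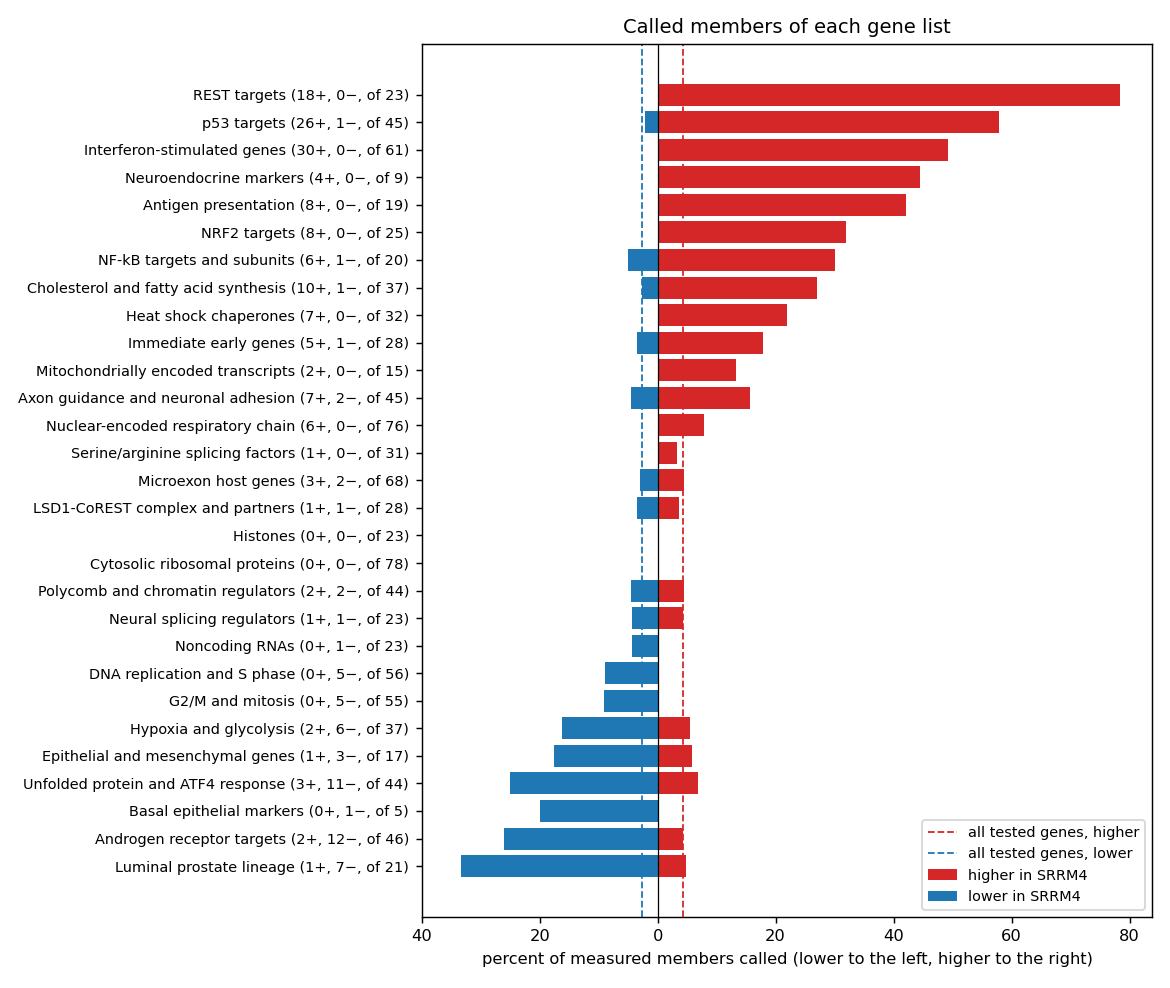
Percent of measured members called higher (bars to the right) and lower (bars to the left) with SRRM4 for each gene list with at least 5 measured members, with dashed lines at 4.38% and 2.67% for all tested genes. The REST, p53 and interferon lists reach furthest right, and the luminal and androgen receptor lists reach furthest left.

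The proliferation genes that were called were all lower. Among 55 genes of G2/M and mitosis 52 had a negative log2 fold change (median -0.09). Of these 55, 5 were lower (9.09%, against 2.67% of all genes) and none was higher. TOP2A, a topoisomerase of dividing cells, fell from 155, 167 and 158 to 138, 130 and 146 CPM (1.16-fold, edgeR adjusted p = 0.000713), and KIF14, a mitotic kinesin, was 1.23-fold lower, a call that DESeq2 did not make. Of 56 genes of DNA replication and S phase 5 were lower (8.93%) and none was higher (median -0.06). RRM2, the inducible subunit of ribonucleotide reductase, fell from 139, 143 and 135 to 114, 125 and 122 CPM (1.15-fold). In edgeR 0 G2/M genes and 1 S phase gene were higher at an unadjusted p under 0.05, and DESeq2 and limma-voom called none higher in either list. The lower calls depended on the setting: DESeq2 called 1 in each list, and without 1 library they numbered 1 to 9 for G2/M and 1 to 3 for S phase. Of 23 histone genes none was called in edgeR, DESeq2 or limma-voom, and at an unadjusted p under 0.05 edgeR had 1 higher and 2 lower. In bulk RNA, fewer cells in a state and less RNA per cell cannot be told apart, here and in the lists below.

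Androgen receptor targets were lower in 12 of 46 measured cases (26.1%, against 2.67% of all genes) and had a median of -0.09. They were higher in 2 cases (4.35%), near the 4.38% of all genes. The count of lower targets was 6 on log2(TPM + 1), 0 with a required change of 1.5-fold, and 6 without LSD1 replicate 2. KLK3 stood at 3370, 3220 and 3160 CPM with LSD1 and at 2680, 2680 and 2610 CPM with SRRM4. The libraries did not overlap (log2 fold change -0.29, SE 0.03, edgeR adjusted p = 1.97e-08), and EV and LSD1+8a averaged 3120 and 3030 CPM. KLK2, a related kallikrein, was 1.13-fold lower, and ACPP, prostatic acid phosphatase, 1.25-fold. The largest fall of the list was TSC22D3, a leucine zipper protein that glucocorticoids also induce, from 106, 97.9 and 111 to 76.5, 75.2 and 82.9 CPM (1.34-fold). TMPRSS2, a transmembrane protease, and STEAP2, a metalloreductase, were both lower by -0.18. FKBP5, a widely used readout of the receptor, was not called, at -0.04. The higher members were KRT8, a luminal keratin (0.17), and ZNF385B, a zinc finger protein (0.76), which DESeq2 did not call.

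Regulators of the luminal lineage changed in the same direction. FOXA1, a pioneer factor of the receptor, fell from 373, 393 and 401 to 364, 351 and 357 CPM (1.09-fold, edgeR adjusted p = 0.0205), and HOXB13, a prostate homeobox factor, was 1.07-fold lower. Both calls were lost in 4 of 6 fits that left out 1 library. In all, 7 of 21 measured luminal genes were lower (33.3%) and 1 was higher (4.76%, near the 4.38% of all genes). The median was -0.07, and 8 members of this list are also on the androgen receptor list. Among 17 epithelial and mesenchymal genes, FN1, the matrix protein fibronectin, rose from 879, 854 and 832 to 1140, 1090 and 1020 CPM (1.27-fold). The intermediate filament VIM was 1.33-fold lower, the desmosomal DSP 1.12-fold and ESRP1 1.13-fold. The list thus held 1 higher (5.88%) and 3 lower (17.6%) members from both sides of that axis, against 4.38% and 2.67% of all genes.

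Of 44 measured genes of the unfolded protein and ATF4 response, 11 were lower, 3 were higher and 30 had no call (median -0.09). The shares were 25% lower and 6.82% higher, against 2.67% and 4.38% of all genes. TRIB3, a pseudokinase induced by ATF4, fell from 191, 189 and 203 to 151, 146 and 159 CPM (1.28-fold, edgeR adjusted p = 7.4e-07). PSAT1 and PHGDH, enzymes of serine synthesis, were lower by -0.19 and -0.14, and ASNS, asparagine synthetase, by -0.17. SEL1L, a component of endoplasmic reticulum degradation, was lower by -0.18. The secreted STC2, a stanniocalcin, was lower by -0.27 and ATF4 itself by -0.12. The higher members were SESN2, ATF3 (0.37), a stress factor, and SLC3A2 (0.11), an amino acid transporter subunit. The SLC3A2 call was lost in 13 of 19 other settings, DESeq2 and limma-voom among them. For all 11 lower members the LSD1+8a mean also exceeded the SRRM4 mean, an order favoured by their choice for a low SRRM4 level. Summed over the 44 measured genes, SRRM4 libraries held 9260 to 9430 CPM and LSD1+8a libraries 9630 to 9920 CPM.

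Calls among hypoxia and glycolysis genes were also mostly lower. Of 37 measured, 6 were lower (16.2%, against 2.67% of all genes) and 2 higher (5.41%, against 4.38%), with a median of -0.09. HK2, a hexokinase, fell from 88.6, 83 and 86.9 to 72.5, 69.8 and 72.6 CPM (1.2-fold, edgeR adjusted p = 0.00041), with means of 78.2 and 74.6 CPM in EV and LSD1+8a. ANKRD37, a target of hypoxia-inducible factors, was 1.43-fold lower, and the histone demethylase KDM3A and the glycolytic regulator PFKFB4 were 1.22-fold and 1.27-fold lower. Of the 6 lower genes, 5 had a higher mean with LSD1 than with EV, and none had a higher mean with LSD1+8a than with LSD1. These 6 were called because LSD1 exceeded SRRM4, and that choice favours such an order. Summed over the 37 measured genes, LSD1 libraries held 15100 to 16000 CPM and SRRM4 libraries 14900 to 15500 CPM. The range was 14400 to 15500 CPM with EV and 14000 to 15100 CPM with LSD1+8a. HK1 and ALDOC, a hexokinase and an aldolase, were higher by 0.15 and 0.26.

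**Figure D5:**
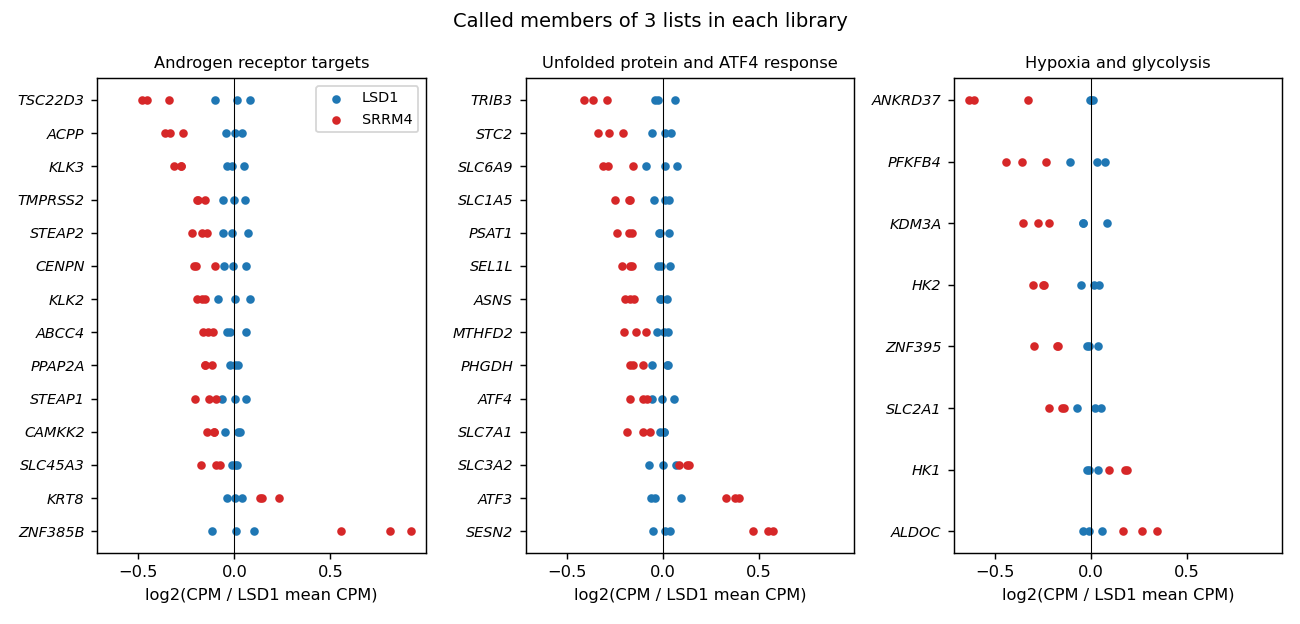
Log2 ratio of each library's CPM to the LSD1 mean (x axis) for the called members of 3 lists, 1 gene per row, for SRRM4 and LSD1 libraries. Most SRRM4 points lie left of LSD1 points by less than 0.5, and KRT8, ZNF385B, SLC3A2, ATF3, SESN2, HK1 and ALDOC lie to the right.

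Calls among oxidative stress, chaperone and lipid genes were mostly higher. Of 25 NRF2 targets, genes of the oxidative stress response, 8 were higher and none lower (median 0.11). HMOX1, heme oxygenase, rose from 8.37, 6.39 and 7.85 to 19.1, 18.6 and 19.5 CPM (2.52-fold, edgeR adjusted p = 6.7e-11). SQSTM1, an autophagy receptor that is also on the chaperone list, rose from 703, 674 and 700 to 865, 855 and 881 CPM (1.25-fold). Of 32 heat shock chaperones and cofactors 7 were higher and none lower (median 0.06). HSPB8, a small heat shock protein, was 2.42-fold higher and its partner BAG3 1.24-fold. At an unadjusted p under 0.05 edgeR had 1 NRF2 target and 0 chaperones lower, and DESeq2 and limma-voom called none lower. Of 37 genes of cholesterol and fatty acid synthesis 10 were higher (27%) and 1 was lower (2.7%), against 4.38% and 2.67% of all genes. The median was 0.08. FDFT1, squalene synthase, rose from 207, 196 and 199 to 256, 269 and 252 CPM (1.29-fold). FASN, fatty acid synthase, was 1.17-fold higher, and the elongase ELOVL5 was 1.16-fold lower. Of 28 immediate early genes 5 were higher (17.9%), JUNB and NR4A1 by 0.35 and 0.36 among them. ARRDC3, an arrestin relative, was the 1 lower member (3.57%), at -0.3.

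Changes in housekeeping groups were small. None of 78 cytosolic ribosomal protein genes was called, and their log2 fold changes lay between -0.1 and 0.07. In edgeR 2 of them were lower and none was higher at an unadjusted p under 0.05, and DESeq2 and limma-voom called none. Of 76 nuclear genes of the respiratory chain 6 were higher, by at most 0.18, which is 7.89% against 4.38% of all genes. None was lower (none at an unadjusted p under 0.05 in edgeR, nor in DESeq2 or limma-voom). Of 15 mitochondrially encoded transcripts the ribosomal RNAs MT-RNR1 and MT-RNR2 (13.3%) were called higher, by 0.26 and 0.1. None was lower in edgeR, DESeq2 or limma-voom, and 1 was at an unadjusted p under 0.05. MT-RNR2 averaged 11300 CPM with SRRM4 and 10600 CPM with LSD1, beside 11400 CPM with EV and 10800 CPM with LSD1+8a. For MT-RNR1 the means were 1930, 1610, 1660 and 1610 CPM in the same order. The protein-coding MT-CYB overlapped between groups at 5510, 5280 and 5200 CPM with LSD1 and 5410, 5770 and 5530 CPM with SRRM4. Nuclear copies of mitochondrial sequence can draw some of these reads.

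The largest falls were small. Apart from KDM1A and genes with clone names, the 14 largest ranged from POTEJ (-0.88), a member of the near-identical POTE family whose reads may be shared, to ZMAT1 (-0.49), a zinc finger gene. PPFIA4, a liprin, fell from 20.9, 17.6 and 18.2 to 14.1, 9.47 and 10.6 CPM (1.65-fold, edgeR adjusted p = 0.0083), and its LSD1+8a mean was 11.2 CPM. FAM129A, also known as NIBAN1, fell from 24.2, 22.3 and 23.5 to 15.7, 14.5 and 17 CPM (1.48-fold, edgeR adjusted p = 1.44e-05). SCNN1G, a subunit of the epithelial sodium channel, was 1.51-fold lower, and MIR210HG, the host of a hypoxia-induced microRNA, 1.43-fold. SV2C, a synaptic vesicle protein, was 1.45-fold lower, and ANKRD37, given above, is among the 14. DESeq2 called 3 of these 14 genes, and no gene of the 14 passed with a required change of 1.5-fold. DESeq2 called each of the 15 largest rises, and 14 of them passed with a required change of 1.5-fold and in limma-voom. The exception was TRPV1, whose call was lost in 11 of 19 other settings, among them 5 of the 6 fits without 1 library. TRPV1, a heat-gated ion channel, stood at 0.957, 0.255 and 1.1 CPM with LSD1 and 2.17, 4.32 and 1.65 CPM with SRRM4 (edgeR adjusted p = 0.0493). Its EV and LSD1+8a means of 2.37 and 3.21 CPM lay among the SRRM4 libraries.

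Markers of other cells were sparse in both groups. Of 11 fibroblast markers 2 were measured, with summed levels of 23.3 to 25.7 CPM with LSD1 and 23.7 to 32 CPM with SRRM4, and neither passed in edgeR, DESeq2 or limma-voom or had an unadjusted p under 0.05. Of 11 leukocyte and endothelial markers 2 were measured, at 25.2 to 28 and 22 to 28.1 CPM. Neither passed in edgeR, DESeq2 or limma-voom, and an unadjusted p under 0.05 was found for 1 in edgeR. Of 10 basal epithelial markers 5 were measured, at 86.3 to 94 and 75.3 to 84.8 CPM, and ITGA6, a laminin receptor, was lower by -0.25. Of the 569 higher genes 144, and of the 347 lower genes 57, were members of any list described here.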

How the data were processed

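PolyA RNA of 12 libraries was sequenced, and 6 of them form the comparison. The deposited count table holds whole-number counts per gene and the deposited TPM table holds TPM per gene, per the file headers. STAR 2.5.3a, RSEM 1.2.31 and hg19 appear in the submitters' processing notes, without a role for each. TPM served as levels and in alternatives, and the authors' own comparison table was not used here.

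All 13001 genes passed filterByExpr and entered the fit, and TMM scaling followed the filter. The 4 groups were fitted in 1 model with edgeR 4.0.16 (R 4.3.3, robust quasi-likelihood F test), and SRRM4 was tested against LSD1 with Benjamini-Hochberg adjustment over all genes. The biological coefficient of variation was 2.98%. Library totals of 10.88 to 12.57 M in the 6 libraries are 1 limit on precision. Replicates varied more than counting noise: the chi-square divided by its degrees of freedom was 1.44 to 2.08 over 6 pairs.

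Members and gene lists were chosen with earlier results of these data known. Named genes were KDM1A, the 15 largest rises and 15 largest falls among calls whose average log2 CPM was 0 or more and whose groups did not overlap, and up to 4 members of each list with the smallest p. Other list members, and a few genes outside the lists, were named after their values were seen. Clone names were passed over, and a few genes that enter the counts are not reported here by name.

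The fit was tested on simulated data with known fold changes, 50 genes for each size. It recovered 22% of changes of 1.15-fold, 54% of 1.25-fold, 80% of 1.5-fold and 92% of 2-fold. False calls made up 3.88% of calls. A gene without a call can therefore still hold a small change. RefSeq promoter windows (GRCh38.p14) matched 9040 tested genes by symbol. Alternatives were other scalings and filters, DESeq2 1.42.0, limma 3.58.1 (voom on counts, trend on log2 TPM), a replicate block, a fit of the 6 libraries alone, a 1.5-fold threshold, and leaving out each library. Thinning to equal totals was added after the data were seen.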

Additional observations from a re-analysis of the deposited data

Results flagged for a closer look

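The TPM of the listed genes did not reach the full TPM total of a library, so a share of each library lay in genes outside the deposited table. That share averaged 1.42% (SD 0.0325, n = 3) in the SRRM4 libraries, against 0.946% with LSD1, 0.882 to 0.896% with EV and 0.892 to 0.94% with LSD1+8a. It is given here because it is a signal outside the genes compared and above the level in the empty-vector libraries. Each SRRM4 library, at 1.39 to 1.46%, lay above each LSD1 library, at 0.928 to 0.968%. Which transcripts make up this share was not analysed here.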

How the results depend on the processing

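Results were recomputed under 18 other settings and after thinning to equal totals. Against 569 higher and 347 lower genes, DESeq2 gave 325 and 174, limma on log2(TPM + 1) 128 and 57, limma on log2(TPM + 0.1) 123 and 55, and a 1.5-fold threshold 34 and 1. Leaving out 1 library gave 329 to 461 higher and 159 to 287 lower genes. Interferon-stimulated calls numbered 13 with a TPM pseudocount of 1, 11 with 0.1 and 7 at the 1.5-fold threshold. The p53 calls were 12, 12 and 3, and lower androgen receptor targets 6, 6 and 0 under the same settings, with 6 to 10 of the latter when 1 library was left out. REST targets were 7 at the threshold. Without 1 library, REST targets numbered 15 to 17, interferon-stimulated genes 20 to 26 and p53 targets 22 to 26. Other lists varied too: higher calls ran from 4 to 7 for antigen presentation, 3 to 5 for NF-kB, 5 to 6 for NRF2, 4 to 7 for chaperones, 5 to 9 for cholesterol and fatty acid synthesis and 0 to 5 for the respiratory chain. Lower calls ran from 2 to 6 for hypoxia, 8 to 11 for ATF4, 1 to 9 for G2/M and 1 to 3 for S phase. Among the genes named here, direction turned for uncalled genes near 0. STAT2 reached 0.08 under both TPM settings and ran from -0.02 to 0.03 when 1 library was left out, IRF9 ran from -0.04 to 0.15, and NEFL from -0.2 to 0.11. Leaving out 1 library also ended calls of small size such as ATF3, ALDOC, HK1, DSP, B2M and MT-RNR2. The cause of these shifts was not tested. Precision differed between genes. The log2 fold change of TRPV1, a gene of few counts whose libraries scattered within each group, had an SE of 0.49, and that of KLK3 0.03. PGBD5, with means of 1.8 CPM with LSD1 and 5.28 CPM with SRRM4, had an SE of 0.24. The parts of depth and of spread between libraries were not tested.

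Deviations of same-numbered SRRM4 and LSD1 libraries from their group means correlated at -0.12, -0.22 and 0 over 8857 genes. Between other numbers the values ran from -0.1 to 0.2, and 0 of 3 SRRM4 libraries correlated best with its own number. With 3 libraries in each group these values are tied to each other, so they cannot tell whether the libraries were paired in culture. With a replicate block 512 genes were higher and 300 lower.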

Other observations

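CSPG4P9, a pseudogene, had a fitted log2 fold change of -10.61 without a call (edgeR adjusted p = 0.221), with 0, 177 and 394 counts in the LSD1 libraries and 0 in each SRRM4 library. EV libraries of this gene read 187, 142 and 0 counts, so single libraries of a group were at 0 while others were not. CERS6-AS1, an antisense gene whose reads cannot be told apart from its partner's without strand, read 0, 0 and 78 counts with LSD1 and 0 in each SRRM4 library.

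The ratio of counts to TPM follows the transcript length assigned to a gene, and it was compared between the groups after the data were seen. Over 11336 genes with at least 50 counts and 1 TPM in every library, limma called none at an adjusted p under 0.05. An unadjusted p under 0.05 was found for 644, where 567 would be expected if no gene differed. No other tool was run on this ratio. The gene with the smallest p was KIAA0586, a centrosomal protein gene (adjusted p = 0.0576 in limma). Its centred log2 ratio was 0.4, 0.41 and 0.53 in the LSD1 libraries and 0.79, 0.88 and 0.81 in the SRRM4 libraries, which did not overlap.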
